A study of Mus musculus with 7 samples.

Results

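The genes described are 10 regulators and markers of the cell division cycle, chosen by symbol: 4 inhibitors of cyclin-dependent kinases (Cdkn1a, Cdkn1b, Cdkn1c and Cdkn2c), the D-type cyclins Ccnd1, Ccnd2 and Ccnd3, the transcription factor gene Myc, and the proliferation markers Mki67 and Top2a. Values of 9 of the 10 were analysed, out of 12756 genes in the table; Myc was not analysed here. The libraries came from retinas of adult C57BL/6 mice that all carried Cdh5-CreERT2, a tamoxifen-inducible Cre driven by the endothelial Cdh5 promoter, and the Rpl22 tm1.1Psam allele, which tags a ribosomal protein with HA once Cre has acted. The animals had received an anti-Dll4 antibody (4 libraries) or a control IgG (3 libraries), and RNA bound to tagged ribosomes was isolated with anti-HA beads for 3′-end (QuantSeq) sequencing. The labels state neither a dose, nor a length of treatment, nor that each library was a separate animal. P-values therefore measure spread among libraries, which may be technical.

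D-type cyclins bind the kinases Cdk4 and Cdk6 and start the phosphorylation of the retinoblastoma protein, which frees E2F factors to switch on the genes of DNA replication. INK4 proteins such as p18, the product of Cdkn2c, bind Cdk4 and Cdk6 themselves, whereas the Cip/Kip proteins p21, p27 and p57, the products of Cdkn1a, Cdkn1b and Cdkn1c, bind complexes of cyclins and kinases. Endothelial cells of the adult retina are mostly quiescent, and Dll4, acting through Notch receptors, is known to restrain the sprouting and division of endothelial cells in growing vessels. Comparing anti-Dll4 with control IgG libraries shows whether these cell cycle transcripts differed once this ligand was blocked.

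The table held 1356192 to 1771086 reads per library, and values are given in CPM, the reads of a gene scaled to a library total of 1000000. The pulled-down RNA was not endothelial RNA alone. The 23 endothelial markers together made up 0.805% ± 0.130 of all CPM in anti-Dll4 libraries (SD, n = 4) and 0.393% ± 0.100 in control IgG libraries (SD, n = 3), with 18 of the 23 changes positive (exact permutation p = 0.0286, two-sided, the lowest p possible with 35 splits). The 16 rod markers made up 1.63% ± 0.402 in anti-Dll4 libraries and 2.58% ± 0.0561 in control IgG libraries (exact permutation p = 0.0571, two-sided), and for both lists the groups stood apart. Single anti-Dll4 libraries held 0.700% to 0.994% and control IgG libraries 0.314% to 0.506% endothelial marker CPM. Rod marker CPM made up 1.15% to 2.10% in anti-Dll4 and 2.52% to 2.63% in control IgG libraries, and no marker of either list was at 0 in all 7 libraries. Müller glia markers (8 positive and 4 negative changes) summed to 0.262% of CPM in anti-Dll4 and 0.235% in control IgG libraries. Markers of pericytes and smooth muscle summed to 0.0318% of CPM in anti-Dll4 and 0.0209% in control IgG libraries, and those of microglia and macrophages to 0.00694% in anti-Dll4 and 0.00340% in control IgG libraries. Inner retinal neuron markers (3 positive and 14 negative changes) summed to 0.181% in anti-Dll4 and 0.212% in control IgG libraries, and cone markers (1 positive and 7 negative) to 0.0571% in anti-Dll4 and 0.0842% in control IgG libraries. The 5 red blood cell markers, all with negative changes, varied most, from 0.0661% to 3.60% in anti-Dll4 and from 0.140% to 1.87% in control IgG libraries. In such bulk RNA, more cells of a type and more RNA per cell cannot be told apart.

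For none of the cell cycle genes was the difference between the groups larger than the spread between libraries by the test. Of the 9 genes, 8 had at least 1 CPM in 3 or more libraries and entered the test across all genes (limma on log2(CPM + 1)). At an adjusted p under 0.05, 0 of the 8 were called, 0 had an unadjusted p under 0.05, and voom on whole reads also called 0; over all 10899 genes tested, 0.119% were called. Changes were positive for 4 of the 8 (Cdkn1b, Ccnd1, Ccnd3 and Top2a) and negative for the other 4, with a median log2 change of 0.36, against -0.14 over all genes tested, of which 45.5% had a positive change. The groups overlapped for all 8. They did not overlap for 7.59% of all genes tested, a share at which any 8 genes would often hold none.

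**Figure D1:**
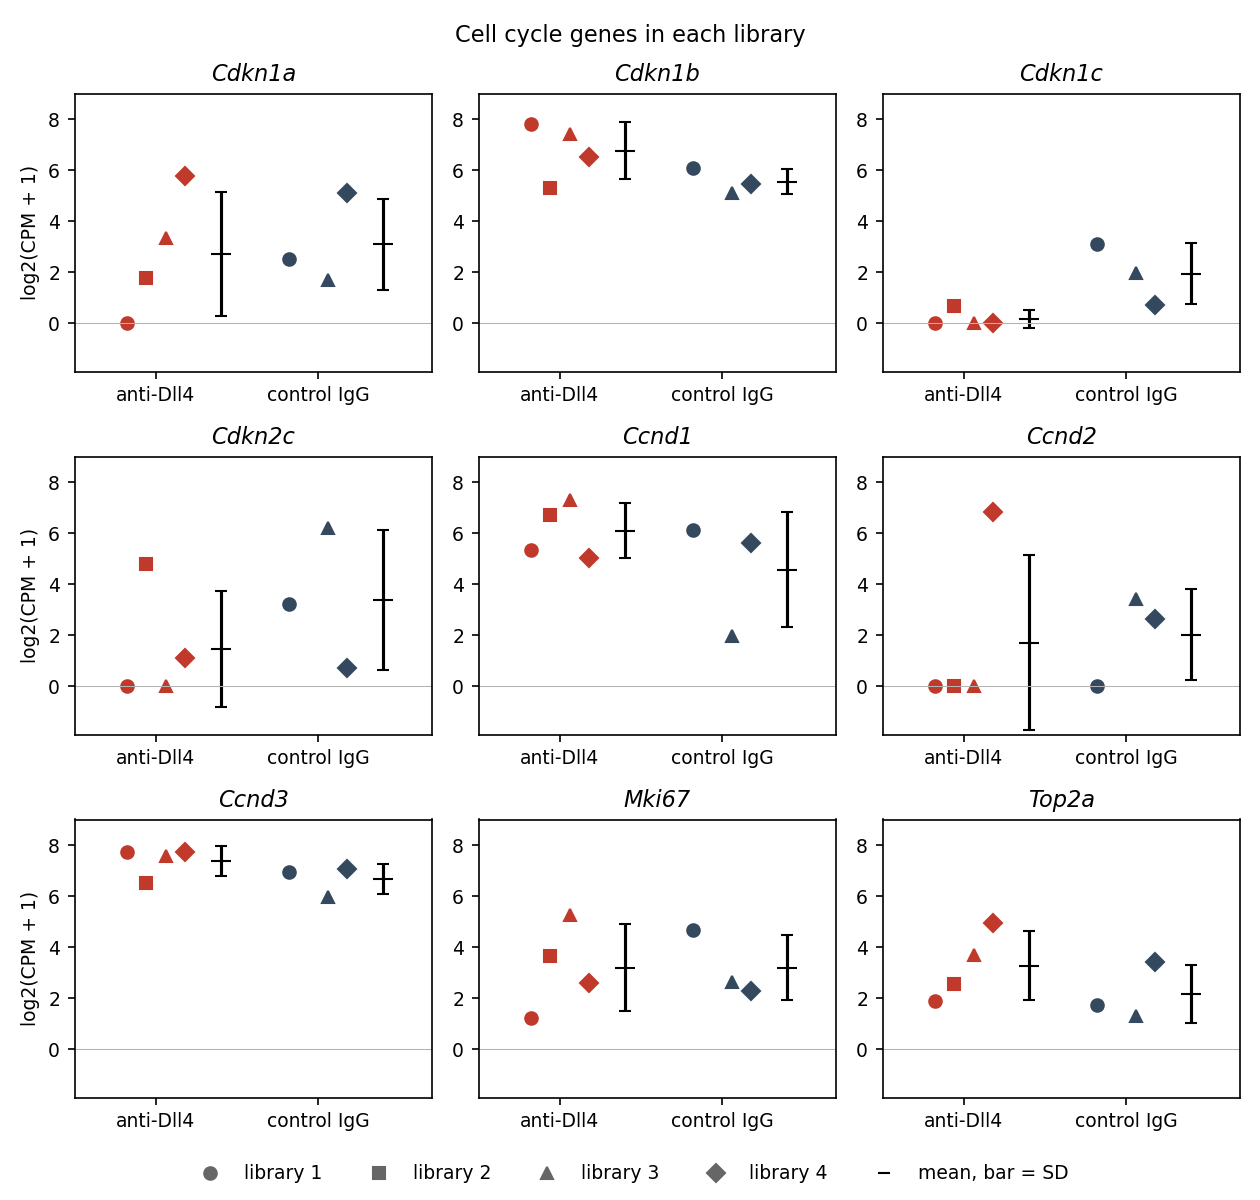
Level of each of the 9 genes as log2(CPM + 1), one panel per gene, with anti-Dll4 libraries (red) left of control IgG libraries (dark blue), symbols for the library number and the mean with its SD beside each group. Cdkn1b, Ccnd1, Ccnd3, Mki67 and Top2a had reads in every library, while Cdkn1a, Cdkn1c, Cdkn2c and Ccnd2 were at 0 in 1 or more libraries.

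Among the Cip/Kip inhibitors, Cdkn1b, which encodes p27, the inhibitor best known for holding resting cells out of the cycle, was read in every library. It had 226, 38.5, 169 and 90.9 CPM in anti-Dll4 libraries 1 to 4, against 67.3, 33.2 and 43.0 CPM in control IgG libraries 1, 3 and 4. Anti-Dll4 2 lay among the control libraries and the other 3 anti-Dll4 libraries lay above all of them. The means were 131 ± 82.8 CPM in anti-Dll4 libraries (SD, n = 4) and 47.8 ± 17.5 CPM in control IgG libraries (SD, n = 3). The log2 change was 1.22 ± 0.78 (SE, limma adjusted p = 0.765), with a 95% interval of -0.40 to 2.83, so that values between 1.32-fold lower and 7.12-fold higher lie within it. Without anti-Dll4 2 the change was 1.70 ± 0.74 (limma adjusted p = 0.592), and Cdkn1b then had an unadjusted p under 0.05, so that the count of such genes among the 8 was 1 instead of 0.

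Cdkn1a, which encodes p21, an inhibitor induced by p53 and by other stress signals, had few reads in most libraries. Its values were 0, 2.45, 9.06 and 53.1 CPM in anti-Dll4 libraries 1 to 4, and 4.72, 2.21 and 33.2 CPM in control IgG libraries 1, 3 and 4. The highest value of each group stood in its library 4, with 94 reads in anti-Dll4 4 and 51 in control IgG 4, and no other library had more than 16. On the log2 scale the change was -0.38 ± 1.77 (limma adjusted p = 0.976), with a 95% interval of -4.06 to 3.30, while the mean CPM was 1.21 times as high in anti-Dll4 as in control IgG libraries. The direction therefore differed between the log scale and the mean CPM.

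Cdkn1c, the imprinted gene of p57, was almost without reads under anti-Dll4. It had 0, 1, 0 and 0 reads in anti-Dll4 libraries 1 to 4, against 13, 4 and 1 reads in control IgG libraries 1, 3 and 4. The 1 read of anti-Dll4 2 was 0.612 CPM and the 1 read of control IgG 4 was 0.652 CPM, so that the groups were set apart at that point by library depth alone. Pooled over libraries and divided by depth, the ratio of anti-Dll4 to control IgG was 0.0382, with a 95% interval from counting error of 0.000917 to 0.242. That interval is too narrow, because the variance of the control IgG reads was 5.29 times what counting gives, with 13 reads in control IgG 1. The gene reached 1 CPM in 2 libraries and was below the filter. With no filter, its log2 change was -1.77 ± 1.10 (limma adjusted p = 0.835), and it did not pass.

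Cdkn2c, the gene of the INK4 inhibitor p18, was high in single libraries of both groups. It had 0, 26.3, 0 and 1.13 CPM in anti-Dll4 libraries 1 to 4, against 8.26, 71.5 and 0.652 CPM in control IgG libraries 1, 3 and 4. In reads, anti-Dll4 2 had 43 and the other anti-Dll4 libraries 0 to 2, while control IgG 3 had 97 (95% Poisson interval 78.7 to 118, counting error only) and control IgG 4 had 1 (0.0253 to 5.57). The 3 control libraries alone thus spanned nearly the whole range of values. The log2 change was -1.91 ± 1.67 (limma adjusted p = 0.845; 95% interval -5.37 to 1.56), and it was -0.50 without control IgG 3.

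**Figure D2:**
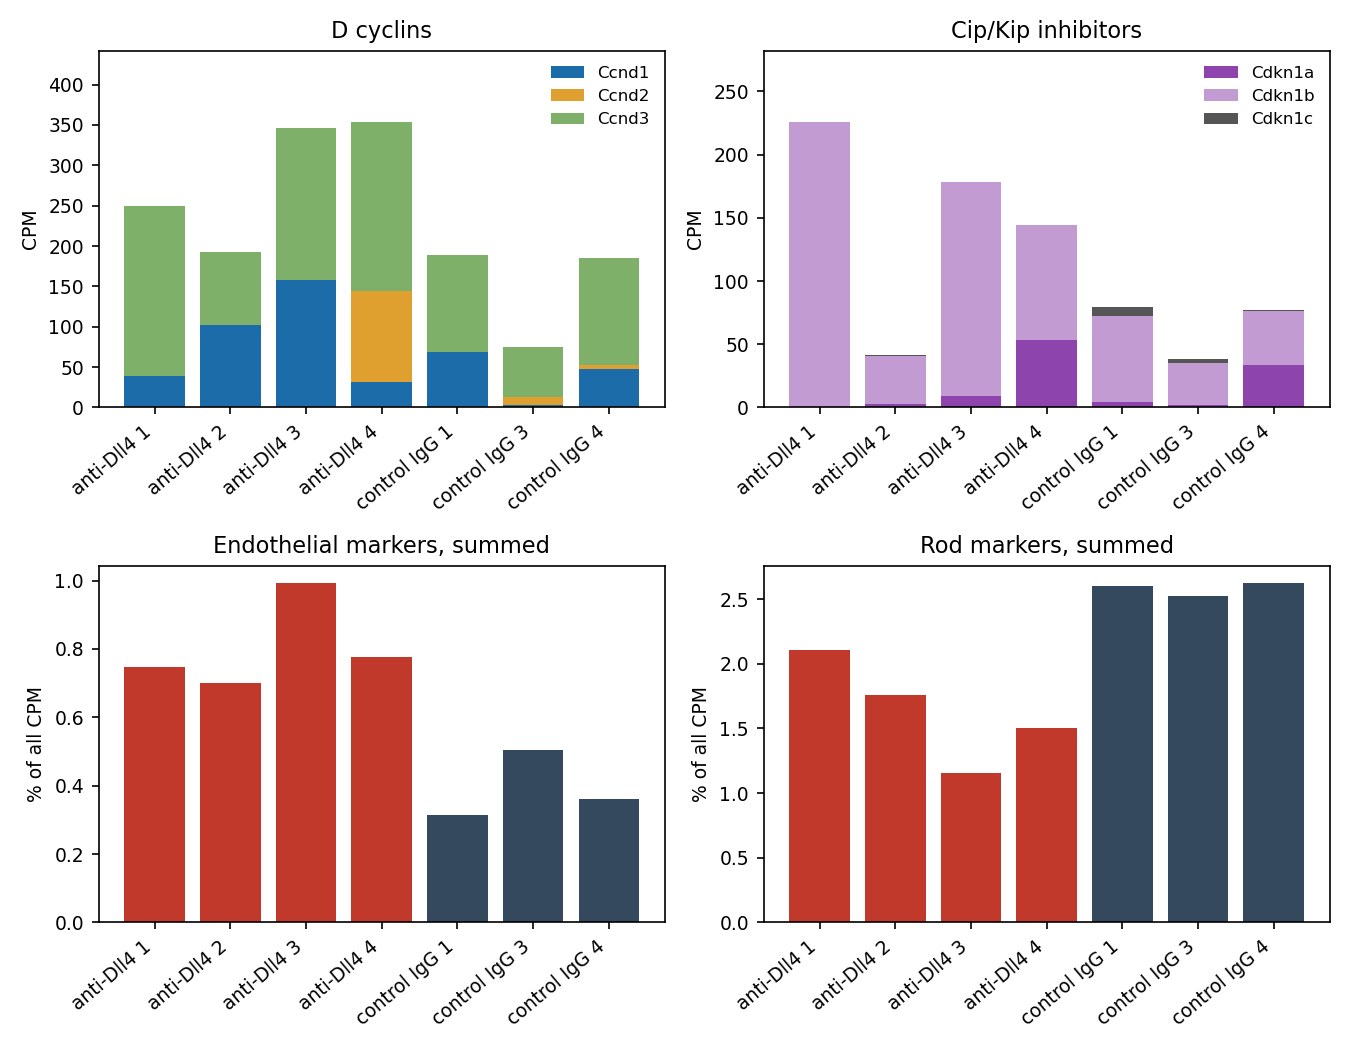
Upper panels: CPM of the D cyclins and of the Cip/Kip inhibitors, stacked by gene, in each library, anti-Dll4 libraries first. Lower panels: summed CPM of the 23 endothelial and the 16 rod markers as a percentage of all CPM in the same libraries; every anti-Dll4 library lay above all control IgG libraries for the endothelial markers and below them for the rod markers.

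Of the D-type cyclins, Ccnd3 had the steadiest values. It had 209.6, 89.3, 188 and 209 CPM in anti-Dll4 libraries 1 to 4, against 121, 61.9 and 133 CPM in control IgG libraries 1, 3 and 4. As for Cdkn1b, anti-Dll4 2 fell within the control range and the other 3 anti-Dll4 libraries lay above it. The means were 174 ± 57.3 CPM in anti-Dll4 libraries (SD, n = 4) and 105 ± 38.0 CPM in control IgG libraries (SD, n = 3). This gave a log2 change of 0.72 ± 0.58 (limma adjusted p = 0.827), and its 95% interval of -0.50 to 1.93 was the narrowest of the 8, from 1.41-fold lower to 3.81-fold higher.

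Ccnd1, the cyclin D gene that growth factor signals are best known to induce, had 39.5, 103, 157 and 31.6 CPM in anti-Dll4 libraries 1 to 4, against 68.5, 2.95 and 47.6 CPM in control IgG libraries 1, 3 and 4. Control IgG 3 stood far below the rest, with 4 reads where the other 6 libraries had 56 to 278. The log2 change of 1.53 ± 1.10 (limma adjusted p = 0.799; 95% interval -0.76 to 3.82) rested on that library and was 0.23 ± 0.96 without it. Anti-Dll4 1 and 4 lay below 2 of the 3 control libraries.

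Ccnd2 had 0, 0, 0 and 113 CPM in anti-Dll4 libraries 1 to 4, against 0, 9.59 and 5.21 CPM in control IgG libraries 1, 3 and 4. All 200 reads under anti-Dll4 were in anti-Dll4 4, against 13 and 8 reads in the control libraries that had any. The 3 libraries with Ccnd2 reads were also the 3 with the highest summed CPM of 5 red blood cell markers, at 3.60% in anti-Dll4 4 and 1.86% and 1.87% in control IgG 3 and 4, against 0.0661% to 0.850% in the other 4 libraries, and the part of blood RNA in these values was not tested. The mean CPM was 5.72 times as high in anti-Dll4 as in control IgG libraries, while the log2 change was -0.31 ± 1.61 (limma adjusted p = 0.980; 95% interval -3.66 to 3.05). Without anti-Dll4 4 the log2 change was -2.01, and without any 1 of 5 of the other 6 libraries it was above 0, at 0.01 to 0.39.

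Summed over the 3 D cyclin genes, levels were 285 ± 78.1 CPM in anti-Dll4 libraries (SD, n = 4) and 149.9 ± 65.3 CPM in control IgG libraries (SD, n = 3). The make-up of that sum varied among libraries of the same group. Ccnd3 took 84.1%, 46.5%, 54.4% and 59.1% of the D cyclin reads in anti-Dll4 libraries 1 to 4, against 63.9%, 83.2% and 71.6% in control IgG libraries 1, 3 and 4. The Wilson 95% intervals of these shares, which cover counting error only, ran from 80.1% to 87.5% in anti-Dll4 1 and from 41.1% to 52.0% in anti-Dll4 2. The share thus differed between 2 anti-Dll4 libraries by more than counting of independent reads allows. Cdkn1b took 63.1% to 100% of the Cip/Kip reads in anti-Dll4 libraries and 55.9% to 86.5% in control IgG libraries, with the lowest share of each group in its library 4, where Cdkn1a was highest.

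Neither proliferation marker gave a clear direction. Mean CPM was 1.25 times as high in anti-Dll4 as in control IgG libraries for Mki67 and 2.72 times for Top2a, but values varied widely within groups. Mki67, which encodes the Ki-67 protein of dividing cells, had 1.34, 11.6, 37.4 and 5.08 CPM in anti-Dll4 libraries 1 to 4, against 24.2, 5.16 and 3.91 CPM in control IgG libraries 1, 3 and 4. The highest and the lowest value over all 7 libraries both fell in the anti-Dll4 group. Its log2 change was -0.00 ± 1.70 (limma adjusted p = 1.00), with a 95% interval of -3.53 to 3.52, so that a change of 11.5-fold in either direction lies within it.

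Top2a, the gene of the topoisomerase that untangles DNA in dividing cells, had 2.68, 4.89, 11.9 and 29.9 CPM in anti-Dll4 libraries 1 to 4, against 2.36, 1.47 and 9.78 CPM in control IgG libraries 1, 3 and 4. Anti-Dll4 3 and 4 lay above every control library, while control IgG 4 lay above anti-Dll4 1 and 2. Its log2 change was 1.11 ± 1.62 (limma adjusted p = 0.913; 95% interval -2.26 to 4.48). The library with the highest Mki67, anti-Dll4 3, was not the one with the highest Top2a, anti-Dll4 4.

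**Figure D3:**
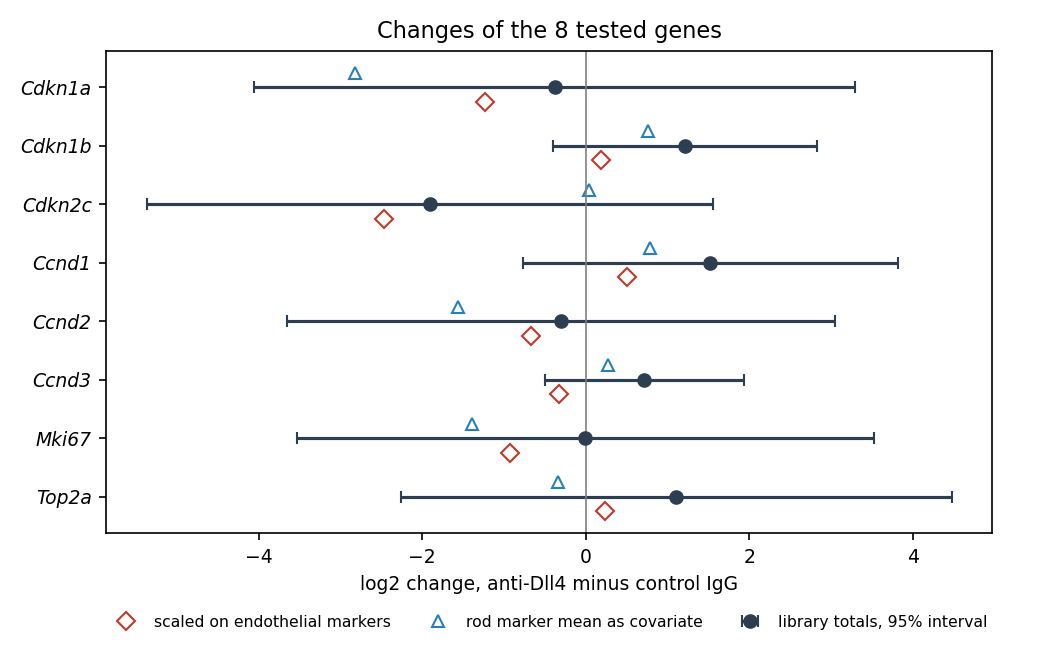
Log2 change (anti-Dll4 minus control IgG) of the 8 tested genes. Filled circles with bars show limma estimates on library totals with 95% intervals, diamonds the estimates after scaling on the summed endothelial markers and triangles those of a fit with the mean of the rod markers as a covariate; every interval holds 0, and Ccnd3, at 0.72, moved to -0.33 after scaling on endothelial markers.

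Anti-Dll4 2 had the lowest endothelial marker share of the anti-Dll4 libraries, at 0.700%, and also their lowest Cdkn1b and Ccnd3. That share still lay above every control library, while both genes lay within the control range. Control IgG 3 had the highest share of the controls, at 0.506%, but their lowest Cdkn1b and Ccnd3, at 33.2 and 61.9 CPM. Anti-Dll4 1, with a share of 0.748%, had the highest Cdkn1b and Ccnd3 of all libraries, at 226 and 209.6 CPM. Scaling the libraries to equal summed endothelial markers moved the median change of all genes tested from -0.14 to -1.04. Cdkn1b then had a log2 change of 0.18 ± 0.81, Ccnd1 of 0.51 ± 1.15, Ccnd3 of -0.33 ± 0.65 and Top2a of 0.23 ± 1.62. Cdkn1a was at -1.23 ± 1.76, Cdkn2c at -2.47 ± 1.68, Ccnd2 at -0.67 ± 1.60 and Mki67 at -0.92 ± 1.69. Relative to the median of all genes, the changes of Cdkn1b, Ccnd1, Ccnd3 and Top2a were 1.22, 1.55, 0.71 and 1.27 with the scaling. Without it they were 1.35, 1.66, 0.85 and 1.25. A single factor per library moves all genes by about the same amount, so that these distances were bound to change little. In a fit that included the mean of the rod markers, Cdkn1b was at 0.76 ± 1.05, Ccnd1 at 0.79 ± 1.52, Ccnd3 at 0.28 ± 0.77 and Top2a at -0.34 ± 2.12. In that fit Cdkn1a was at -2.82 ± 2.28, Cdkn2c at 0.04 ± 2.24, Ccnd2 at -1.56 ± 2.28 and Mki67 at -1.39 ± 2.24. Neither setting gave a call for any of the 8 genes, and the part of endothelial or rod RNA in each change was not tested.

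The values were far noisier than read counting alone would make them. Of the 63 values of the 9 genes, 17 rested on at most 3 reads and 10 on none. A value of 0 leaves room for up to 3 reads, which is 1.69 to 2.21 CPM depending on the library. The variance of the reads within a group, after allowing for library depth, was 1.03 (Cdkn1c, anti-Dll4) to 184 times (Ccnd2, anti-Dll4) what counting gives. For the median gene tested it was 45.6 times in anti-Dll4 and 23.1 times in control IgG libraries. The standard errors of the 8 changes ran from 0.58 to 1.77, against a median of 1.30 over all genes tested. The reads are 3′-end tags without stated molecular identifiers, so that they may not be independent molecules.

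Reads could also be shared with neighbouring genes, since it is not stated whether counting used strand. In GENCODE M21, exons of Ccnd3 overlap those of Bysl on the other strand, exons of Ccnd1 those of LTO1, and exons of Cdkn1a, Cdkn1c and Ccnd2 those of non-coding or unclassified transcripts on the other strand. A processed pseudogene, Ccnd3-ps, is also annotated for Ccnd3 and could share its reads. Bysl, a ribosome biogenesis gene, had a log2 change of 0.95 ± 0.67. No overlap was found for Cdkn1b, Cdkn2c or Mki67, and Top2a overlaps a small nucleolar RNA on its own strand. None of the 9 shared its full set of counts with a second gene.

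The wider cell cycle gave no call either. Of 108 tested genes in 6 lists of the pathway, which include the 8 genes above, 0 were called by limma and 0 by voom on whole reads. Over all 10899 genes tested, 13 were called by limma (0.119%) and 38 by voom, numbers at which 108 genes would often hold none. Of the 108, 4 had an unadjusted p under 0.05, 3.7% of them, against 7.09% of all genes tested. Of the 4, 1 was higher and 3 were lower in anti-Dll4 libraries, against 3.68% and 3.41% of all genes. Groups did not overlap for 2 genes that were higher and 5 that were lower, against 3.84% and 3.75% of all genes tested. The median change of the 108 was -0.16, close to that of all genes tested, -0.14, of which 45.5% had a positive change. No list was tested as a set.

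**Figure D4:**
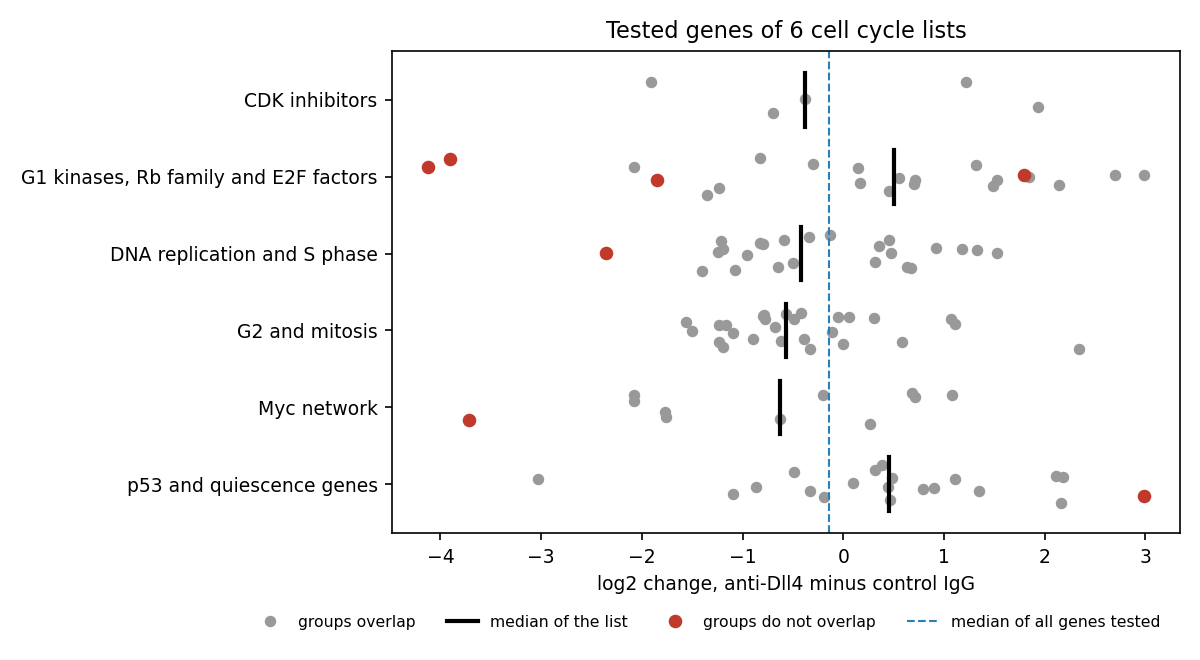
Log2 change (anti-Dll4 minus control IgG) of each tested gene in 6 lists of cell cycle genes; the vertical place within a list has no meaning, black bars mark list medians and the dashed line the median of all genes tested. Red points are the genes whose groups do not overlap, with Txnip at 2.98 the highest and Cdc25a at -4.12 the lowest of them.

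Among CDK inhibitors, 5 of 8 genes were tested, with 2 positive and 3 negative changes and a median of -0.38. The smallest p belonged to Cdkn2d, the gene of the INK4 inhibitor p19. It had 51.6, 31.8, 151 and 251 CPM in anti-Dll4 libraries 1 to 4, against 17.1, 81.1 and 7.82 CPM in control IgG libraries 1, 3 and 4, and a log2 change of 1.94 ± 1.01 (limma adjusted p = 0.711). The groups overlapped, because control IgG 3 lay above 2 anti-Dll4 libraries.

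The list of G1 kinases, Rb family and E2F factors had 22 tested genes, 14 with positive and 8 with negative changes, and a median of 0.51. The smallest p-values were those of Cdc25a, Skp2 and Cdk2. Cdc25a, a phosphatase that activates Cdk2, had 0, 0, 3 and 20 reads in anti-Dll4 libraries 1 to 4, against 88, 90 and 30 reads in control IgG libraries 1, 3 and 4, a log2 change of -4.12 ± 1.68 (limma adjusted p = 0.666). Skp2, the ubiquitin ligase subunit that marks p27 for degradation, had 0, 0, 4 and 5 reads in anti-Dll4 libraries, against 7, 142 and 62 reads in control IgG libraries, a log2 change of -3.91 ± 1.62 (limma adjusted p = 0.678). For both genes every anti-Dll4 library lay below every control library, yet neither passed the test. Cdk2, the kinase that p27 holds in check, had 71, 48, 0 and 7 reads in anti-Dll4 libraries, against 1, 0 and 0 reads in control IgG libraries, a log2 change of 2.99 ± 1.45 (limma adjusted p = 0.705), and anti-Dll4 3 overlapped the controls. Ccne1, which encodes cyclin E1, and E2f4, which encodes a repressive E2F factor, also had groups that did not overlap. Their log2 changes were 1.79 ± 1.00 and -1.85 ± 1.04 (limma adjusted p = 0.731 for both). Ccne1 was low, with a mean log2(CPM + 1) of 1.25 over all libraries, against 5.21 for E2f4.

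Genes of DNA replication had 10 positive and 14 negative changes among 24 tested, and a median of -0.42. Mcm10, a replication initiation factor, was the only one of them whose groups did not overlap, with 1, 14, 0 and 5 reads in anti-Dll4 libraries 1 to 4 and 37, 16 and 14 reads in control IgG libraries 1, 3 and 4. Its log2 change of -2.36 ± 1.53 did not pass (limma adjusted p = 0.769). Rrm1, a subunit of ribonucleotide reductase, had a log2 change of 1.52 ± 1.55, with 212 reads in anti-Dll4 3 and 0 to 7 in every other library. Over the 28 genes of the list with values, the level was 868 to 1671 CPM in anti-Dll4 and 742 to 1646 CPM in control IgG libraries, so that the ranges overlapped almost wholly.

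Of 27 tested genes of G2 and mitosis, 6 changes were positive and 21 negative. Their median was -0.57, and the groups overlapped for all 27. Over all genes tested, 45.5% of changes were positive, the median was -0.14 and groups did not overlap for 7.59%. Whether the list as a whole differed was not tested. Cenpa, the centromeric histone variant, had the smallest p, with 1, 4, 67 and 143 reads in anti-Dll4 libraries 1 to 4, against 2, 0 and 7 reads in control IgG libraries 1, 3 and 4, and a log2 change of 2.34 ± 1.70 (limma adjusted p = 0.802). Bub1b, of the spindle checkpoint, and Kif20a, a kinesin of cytokinesis, had log2 changes of -1.23 ± 1.14 and -1.16 ± 1.08. The summed level of the 32 genes with values was 451 to 885 CPM in anti-Dll4 and 605 to 853 CPM in control IgG libraries. Anti-Dll4 4, the library with the most Top2a and Cenpa reads, had the highest sum of all 7, and anti-Dll4 1 to 3 had the 3 lowest.

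Genes of the Myc network had 4 positive and 7 negative changes among 11 tested. Mycl, a member of the Myc family, had 0, 0, 2 and 1 reads in anti-Dll4 libraries 1 to 4, against 49, 9 and 36 reads in control IgG libraries 1, 3 and 4. The groups did not overlap, and the log2 change of -3.71 ± 1.32 did not pass (limma adjusted p = 0.529). Max, the partner with which Myc binds DNA, had 436 ± 92.1 CPM in anti-Dll4 libraries (SD, n = 4) and 271 ± 56.8 CPM in control IgG libraries (SD, n = 3), a log2 change of 0.68 ± 0.39 (limma adjusted p = 0.738). Fbxw7, the ubiquitin ligase subunit that targets Myc and cyclin E, had a log2 change of -2.08 ± 1.34.

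The list of p53 targets and quiescence genes had 14 positive and 6 negative changes among 20 tested. Txnip, which encodes a thioredoxin-binding protein that limits glucose uptake and is known as a target of FoxO factors, came closest to the threshold of all genes in the 6 lists. It had 341, 300.3, 286 and 454 CPM in anti-Dll4 libraries 1 to 4, against 51.3, 16.2 and 87.3 CPM in control IgG libraries 1, 3 and 4. Every anti-Dll4 library was more than 3 times as high as the highest control library. Txnip thus had a log2 change of 2.98 ± 0.61 (limma adjusted p = 0.0538), just outside the threshold. Over 17 alternative settings the change ran from 1.95, with scaling on endothelial markers, to 3.50, and it passed in 4 of them, with adjusted p from 0.0356 to 0.759. Foxo1, the FoxO factor best known in endothelial quiescence, had 124, 36.7, 64.6 and 111 CPM in anti-Dll4 libraries, against 53.1, 1.47 and 36.5 CPM in control IgG libraries, a log2 change of 2.16 ± 1.13 (limma adjusted p = 0.711). Sesn3, a stress-induced gene that FoxO factors also control, had a log2 change of -3.04 ± 1.50, with 0, 0, 1 and 5 reads in anti-Dll4 libraries and 35, 0 and 148 reads in control IgG libraries.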

How the data were processed

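Ribosome-bound RNA of 7 libraries was measured by QuantSeq 3′ sequencing, per the labels' protocols. The submitters' processing notes name cutadapt, TopHat2 and bedtools, without roles or versions, and hg19, a human build; the symbols are those of mouse genes, so no coordinate is given. The authors deposited log10 values of CPM + 1 for 12756 genes. Raised back, CPM summed to 1000000 per library, and 100% of values were whole multiples of 1 read (tolerance 1e-06), so that reads could be computed.

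The number of the column called control IgG 1 is that of no control title, and it was used as a control library without a number of its own. Genes with at least 1 CPM in 3 libraries were tested with limma 3.58.1 (R 4.3.3) on log2(CPM + 1), with a mean-variance trend and Benjamini-Hochberg adjustment over all genes, two-sided. The added 1 understates the changes of low genes. The design had assumed log CPM with no stated base.

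The 10 genes and the lists were chosen with earlier results of these data known. Named genes are all of the 10 with values and, from each list, the called genes or the 3 with the smallest p (1 of them is not reported here); Ccne1, E2f4 and Bysl were chosen after their values were seen. Intervals and floors cover counting error only. Alternatives were other pseudocounts, filters, scalings, a covariate, voom, a replicate block and leaving out each library.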

Additional observations from a re-analysis of the deposited data

Results flagged for a closer look

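In 3 of 11 groups of 4 anti-Dll4 libraries looked at, 1 library lay so far from the rest that its gap to the nearest was above 0.829 of the whole range of log2(CPM + 1). For continuous values such a gap arises by chance in about 1 in 20 groups; that rate does not hold for Ccnd2 and Cdkn1c, where 3 of 4 libraries had no reads and the gap equals the range by construction. For Ccnd2 the library was anti-Dll4 4, at 6.83 log2 units where the others were at 0 (gap over range 1). For Cdkn1c it was anti-Dll4 2, at 0.69 where the others were at 0 (gap over range 1), a value that rests on 1 read. For Ccnd3 it was anti-Dll4 2, at 6.50 where the others were at 7.56 to 7.72 (gap over range 0.873).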

How the results depend on the processing

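The count of 0 cell cycle regulators and markers called held under all 17 alternatives. Their log2 changes kept their sign in 118 of 136 values, and none passed. Ccnd2 turned to 0.28 with log2(CPM + 5), 0.24 with the replicate block, 0.39 and 0.006 without control IgG 3 and 4, and 0.26 without anti-Dll4 1, 2 or 3. Mki67, at -0.00, turned to 0.075 with log2(CPM + 5), 0.018 with TMM scaling, 0.73 without control IgG 1, 0.65 without anti-Dll4 1 and 0.19 without anti-Dll4 4. Cdkn1a turned to 0.62 without control IgG 4, 0.53 without anti-Dll4 1 and 0.043 with the replicate block. Ccnd3 turned to -0.33 with scaling on endothelial markers, and with the rod covariate Cdkn2c turned to 0.037 and Top2a to -0.34. Leaving out a library moved the change of Cdkn1b between 0.86 and 1.70, of Ccnd1 between 0.23 and 2.30, of Ccnd3 between 0.37 and 1.01, of Cdkn2c between -3.23 and -0.50, of Top2a between 0.55 and 1.74, of Cdkn1a between -1.39 and 0.62, of Ccnd2 between -2.01 and 0.39 and of Mki67 between -0.70 and 0.73. The cause was not tested, apart from the libraries left out.

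Over all genes, 13 were called. The count was 0 without the mean-variance trend, 62 with scaling on endothelial markers (0 higher and 62 lower, against 13 higher and 0 lower), 1 with the rod covariate and 38 with voom (14 higher and 24 lower), and 3 to 20 with a library left out. Of the pathway genes, 1 (Txnip) instead of 0 was called with log2(CPM + 5), with a filter of 5 CPM and with TMM scaling, and 0 to 1 with a library left out (1 without control IgG 4). The difference in the endothelial marker share, 0.412 percentage points, ran from 0.349 to 0.468 with a library left out, where the exact permutation test cannot go below p = 0.0667 or 0.1. The rod difference stayed below 0.

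Titles of both groups share the numbers 3 and 4. Same-numbered libraries deviated from their group means with correlations across genes of 0.05 and 0.07. The labels name no pairing, and the main test assumed none, but these values cannot exclude a shared batch. The replicate block gave 13 calls over all genes and 0 among the cell cycle regulators. Low values were most frequent for Cdkn1c, Cdkn2c, Ccnd2 and Cdkn1a, with 2 to 5 of their 7 values at 3 reads or fewer. For Cdkn1c the variance was 1.03 times what counting gives in anti-Dll4 and 5.29 times in control IgG libraries. For Cdkn2c, Ccnd2 and Cdkn1a the spread was above counting error in both groups. The variance reached 184 times what counting gives for Ccnd2 (anti-Dll4), 88.4 times for Cdkn2c (control IgG) and 62.2 times for Cdkn1a (anti-Dll4).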
